A study of Mus musculus with 4 samples.

Results

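The chemokine system was followed through RNA-Seq libraries of mouse lung cells labelled as group 2 innate lymphoid cells (ILC2s), lymphocytes without antigen receptors that release type 2 cytokines. Its genes were chosen by name from the count table, as every gene whose symbol is Ccl, Ccr, Cxcl, Cxcr, Cx3cl, Cx3cr, Xcl, Xcr or Ackr followed by a digit, together with the platelet chemokines Pf4 and Ppbp. Leaving out 2 pseudogene names, this found 70 of the 49315 genes of the table, under 65 different symbols. Of these, 52 reached at least 1 CPM (counts scaled to a common library size) in at least 1 library, namely 30 ligands, 18 signalling receptors and 4 atypical receptors. A further 10 members had reads but stayed under 1 CPM in every library, and 8 had no read at all. Measured differences below are for the 52, and counts over them describe genes that passed this filter, not the whole family.

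The 4 libraries were PBS-WT, from wild-type C57BL/6 mice given PBS, PBS-HPS1, from Hps1-/- mice given PBS, BLEO-WT, from wild-type mice given bleomycin, and BLEO-HPS1, from Hps1-/- mice given bleomycin. The Hps1-/- mice are a model of Hermansky-Pudlak syndrome, lack a working gene for a subunit of a complex needed to build lysosome-related organelles, and were congenic on C57BL/6. Bleomycin injures the lung and leads to fibrosis. The study used male and female mice and describes an intratracheal protocol and an intraperitoneal protocol, the latter in mice of 10 weeks. The sources used here do not say which of the protocols preceded these libraries, nor how many mice were pooled for each. In all groups, cells were sorted as Lineage- Thy1.2+ ICOS+ T1/ST2+ and kept in medium with IL-2 before RNA was extracted. The number of cells behind a library differed with the groups, from 22405 and 38873 in the PBS libraries (WT, then Hps1-/-) to 84166 and 128647 in the bleomycin libraries. No group has a replicate, so no condition could be tested. Each ratio compares 2 libraries, and its 95% interval covers counting error only.

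The libraries held 72513619 to 87638154 reads. Hps1 itself was at 38.3 CPM in WT and 16.6 CPM in Hps1-/- with PBS, and 48.4 CPM in WT and 21.3 CPM in Hps1-/- with bleomycin, lower in both Hps1-/- libraries. Wherever 4 values follow each other they stand in that order. Differences between library scalings moved the median gene. For BLEO-HPS1 against PBS-HPS1 the median log2 ratio of all genes was 0.25 with TMM factors, the scaling used here, and -0.43 with total counts alone. The ratios also moved with the GC content of the transcripts. Spearman's rho with GC content, over the same 11297 genes in each case, was 0.607 between the bleomycin libraries and -0.0739 between the PBS libraries (Hps1-/- to WT), and 0.489 in WT and 0.605 in Hps1-/- between bleomycin and PBS, as a description of genes that share 2 libraries. Ratios corrected for GC content and length are called corrected below, and all other ratios are uncorrected.

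The label was checked against markers. The ILC2 list, with 15 of its 16 genes in the table, summed to 798, 726, 980 and 1084 CPM, of which Thy1 alone gave 306, 206, 224 and 551 CPM and Arg1, which macrophages also express, 8.34, 4.59, 387 and 257 CPM. Gata3, the transcription factor that defines ILC2s, stood at 38.4, 39.1, 25.1 and 26.9 CPM, and their cytokine genes were low. Il5 was at 0.59, 1.06, 0.293 and 0.412 CPM, and Il13 at 0.821, 1.43, 0.293 and 0.269 CPM. Macrophage and monocyte markers, 13 of 14 found, summed to 15960, 11569, 23495 and 22195 CPM. Lyz2 was at 9428, 6083, 13145 and 12343 CPM and C1qa, a complement gene of macrophages, at 143, 73.2, 1391 and 2047 CPM. Markers of T cells, B cells, neutrophils, fibroblasts, endothelium and epithelium were present as well, and no list had a marker under 3 reads in every library. Among the markers of other cells, only the eosinophil gene Epx fell under 3 reads in any library, with 1 read in the WT and 2 in the Hps1-/- bleomycin library. The gate on lineage-negative cells should remove T cells, B cells and myeloid cells, so the RNA of their markers goes against the label, and every level below is that of the library and not of ILC2s. In bulk RNA, fewer cells of a type and less RNA per cell cannot be told apart. Marker sums that moved with a chemokine gene are given beside it, and their part in the result was not tested.

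**Figure D1:**
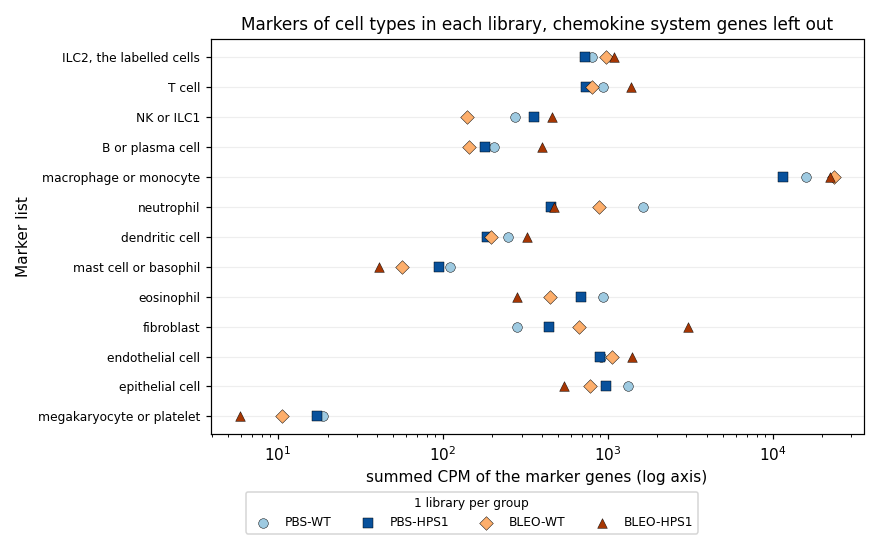
Summed CPM of the marker genes of each cell type (log axis) in the 4 libraries, 1 point per library, with chemokine system genes left out of the lists. The macrophage and monocyte sums lie between 11569 and 23495 CPM, above the ILC2 sums of 726 to 1084 CPM, and the fibroblast sum is highest in BLEO-HPS1 at 3050 CPM.

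Chemokines are small secreted proteins that steer leukocyte migration. They form gradients on the glycans of cell surfaces and matrix, and act on membrane receptors that signal through inhibitory G proteins and are then silenced by kinases and arrestins. They are named CC, CXC, CX3C or XC after the spacing of cysteines near their amino terminus. Inflammatory chemokines are switched on by injury and cytokines, homeostatic ones guide lymphocytes through lymphoid tissue, and atypical receptors bind chemokines without G protein signalling and clear or store them. In injured lung the CCR2 ligands bring in monocytes, the CXCR2 ligands neutrophils, the eotaxins eosinophils, and the CCR4 ligands type 2 lymphocytes.

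Many of these genes lie side by side, and promoters of members that turn up in the results are shown here with the letters of motifs that a search found in them. Promoter sequences from RefSeq (GRCm38.p6) were matched to 48 of the 65 symbols. The NF-kB motif GGGNNTTTCC, read on both strands in the 250 bases before the start, was found in 6 of the 48 (12.5%), against 1.65% of 27025 genes. Those 6 were Ccl9, Ccl20, Ccr3, Cxcl1, Cxcl2 and Cxcl3. The STAT6 motif TTCNNNNGAA was found in 1 of the 48, Ccl17 (2.08%, against 6.76% of genes). The IRF motif GAAANNGAAA was in 3 (6.25%, against 3.46%), and the STAT6 motif reads the same on both strands. A match describes letters only and not a bound factor. Cxcl1, Cxcl2 and Cxcl3 are shown because they are neighbouring CXCR2 ligands that shared the exact letters GGGAATTTCC, and Ccl17 because it was far higher with bleomycin in both genotypes. Each window has 180 bases, 5′ to 3′ on the strand of the gene, with the motif letters in capitals. The windows are chr5:90891065-90891244 on the plus strand for Cxcl1, chr5:90903719-90903898 on the plus strand for Cxcl2, chr5:90785921-90786100 on the plus strand for Cxcl3 and chr8:94810273-94810452 on the plus strand for Ccl17.
Cxcl1: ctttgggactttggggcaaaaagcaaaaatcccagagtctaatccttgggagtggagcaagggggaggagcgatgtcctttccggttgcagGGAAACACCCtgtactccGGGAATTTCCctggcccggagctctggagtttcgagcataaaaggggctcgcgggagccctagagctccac
Cxcl2: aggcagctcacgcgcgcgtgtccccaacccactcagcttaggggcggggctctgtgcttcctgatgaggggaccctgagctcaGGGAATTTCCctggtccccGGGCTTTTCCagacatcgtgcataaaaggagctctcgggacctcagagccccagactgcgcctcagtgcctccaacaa
Cxcl3: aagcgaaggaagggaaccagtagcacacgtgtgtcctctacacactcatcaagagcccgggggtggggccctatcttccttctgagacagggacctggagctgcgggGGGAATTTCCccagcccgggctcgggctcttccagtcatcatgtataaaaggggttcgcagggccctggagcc
Ccl17: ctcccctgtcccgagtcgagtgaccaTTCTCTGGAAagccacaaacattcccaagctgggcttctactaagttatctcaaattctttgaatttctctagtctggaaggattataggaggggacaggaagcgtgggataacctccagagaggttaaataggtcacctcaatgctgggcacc
The shared letters lay 71 to 62 bases before the start in Cxcl1, 97 to 88 bases in Cxcl2 and 73 to 64 bases in Cxcl3. Cxcl1 and Cxcl2 each held a further match, GGAAACACCC on the minus strand in Cxcl1 and GGGCTTTTCC in Cxcl2. In Ccl17 the STAT6 letters TTCTCTGGAA lay 154 to 145 bases before the start.

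Per kilobase of transcript, the scale on which genes can be compared, a few members carried most of the signal. Ccl6, a CC chemokine of rodents that acts on CCR1, was the highest member in every library, at 741, 812, 1425 and 1141 CPM per kb. Cxcl2, a CXCR2 ligand that attracts neutrophils, followed at 341, 314, 654 and 307 CPM per kb, except in BLEO-HPS1, where Ccl17 passed it. Ccl17, a ligand of the type 2 receptor CCR4, was at 52.4, 42.2, 376 and 551 CPM per kb. Among receptors Cxcr4, the receptor of CXCL12 that retains leukocytes in marrow and tissue, led in every library at 249, 231, 252 and 223 CPM per kb. The lymph node homing receptor Ccr7 came next at 85.9, 109, 137 and 208 CPM per kb. In summed CPM the ligands reached 2813, 2751, 5557 and 4609, and Ccl6 and Cxcl2 together made up 72.4%, 76.6%, 70.4% and 58.2% of that. The signalling receptors summed to 1467, 1087, 1619 and 1418 CPM, and the atypical receptors to 19.68, 23.18, 29.84 and 54.18 CPM. Of the 52 members, 34 reached 10 CPM in at least 1 library and 14 reached 100 CPM.

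Members under 1 CPM included the ligands of some well expressed receptors. Ccl19, Ccl21a, Ccl21b and Ccl21c, the ligands of CCR7, had at most 24 reads in any row and library. Those genes, with Ccl27 and Ccl27b, exist as near-identical copies on chromosome 4 and unplaced scaffolds, so that reads can be lost or split between copies and the values are uncertain. Ccl20, the ligand of CCR6, had at most 1 read in any library, Ccl28 at most 9, the eotaxin Ccl26 none, and Ccr1l1 at most 8. Cxcl5, a neutrophil attractant of lung epithelium, had 4, 1, 2 and 1 reads. Cxcl11, named for a CXCR3 ligand but annotated in the mouse as a polymorphic pseudogene, had 17, 17, 11 and 7 reads. Cxcl17, a mucosal chemokine, had 27, 29, 57 and 46 reads.

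**Figure D2:**
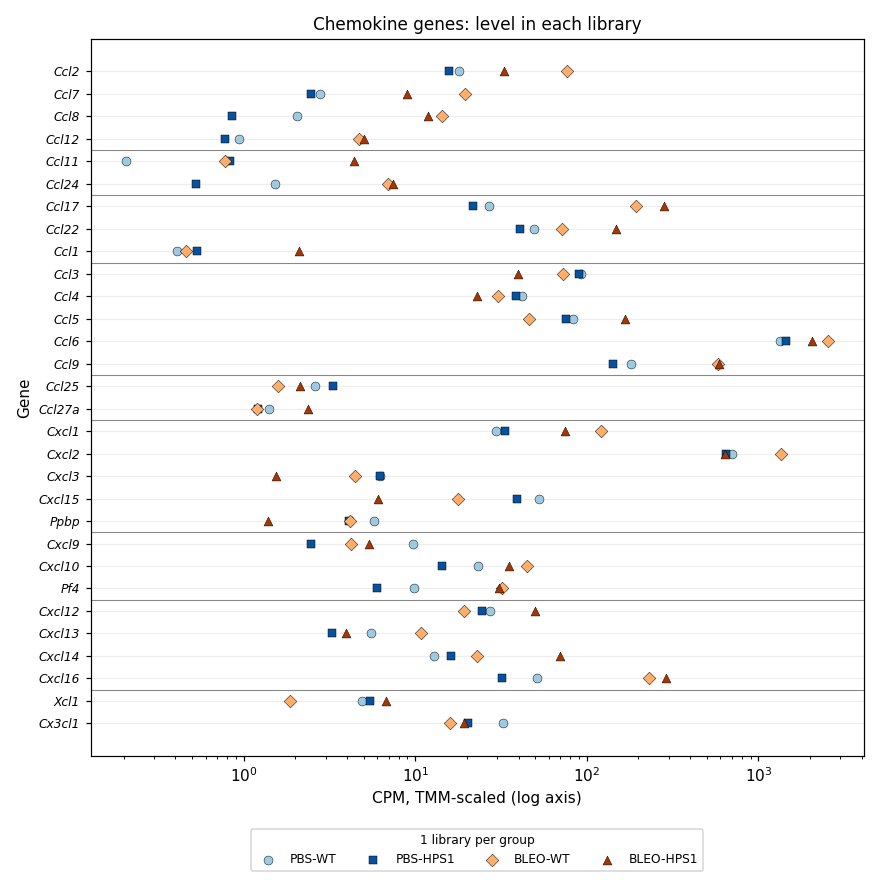
Level of each of the 30 ligand genes in CPM (log axis) in the 4 libraries, 1 point per library, grouped by receptor or role between the grey lines. Ccl2, Ccl7, Ccl8, Ccl12, Ccl24, Ccl17 and Cxcl16 have both bleomycin points to the right of both PBS points, and Cxcl15 has both to the left.

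The bleomycin comparisons ask what differs in cells recovered after lung injury, within each genotype. In WT, 12 of the 52 members (23.1%) stood 2-fold or more above PBS-WT in the BLEO-WT library, where 5.28% of all 14840 genes were, and 9 (17.3%) were at least 2-fold lower, against 8.22% of all genes. The higher ones included 11 ligands, and the lower ones 4 ligands, 4 signalling receptors and the atypical receptor Ackr4. In Hps1-/-, 25 members (48.1%) were at least 2-fold higher in BLEO-HPS1 than in PBS-HPS1, against 26.2% of all genes, and 6 (11.5%) at least 2-fold lower, against 19.6% of all genes. Among the higher, Ccl1, Ccl11 and Ackr1 reached 1 CPM in BLEO-HPS1 alone, so the filter fixed their direction. With total counts alone the Hps1-/- split became 13 higher and 11 lower, and Ccl2, Ccl5, Cxcl1, Cxcl9, Cxcl10, Cxcl12, Cxcr3, Cxcr5, Cx3cr1, Ackr3 and Ackr4 were among those that fell under 2-fold, although none changed sign. Shares over all genes, here and below, are for uncorrected TMM-scaled ratios alone. Counts under other settings therefore only describe the genes counted. Corrected for GC content and length, 19 of the 21 members in WT and 27 of the 31 in Hps1-/- remained at least 2-fold different, and 6 others in each genotype became so. Those were Ccl6, Ccr1, Cxcl2 and Cxcl13 on the higher side and Ccl5 and Cxcr3 on the lower side in WT, and Ccr1, Ccr2 and Xcr1 (higher) and Ccl4, Ccr10 and Cxcr1 (lower) in Hps1-/-. The WT and Hps1-/- bleomycin ratios share no library, and without correction 12 members were at least 2-fold higher in both while 3 were at least 2-fold lower in both. No share over all genes is given for these joint counts, so they only describe the members. The 12 included Ccl2, Ccl7, Ccl8, Ccl9, Ccl11, Ccl12, Ccl17, Ccl24, Cxcl1, Cxcl16 and Pf4, and the 3 were Ccr3, Cxcl15 and Cxcr2.

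**Figure D3:**
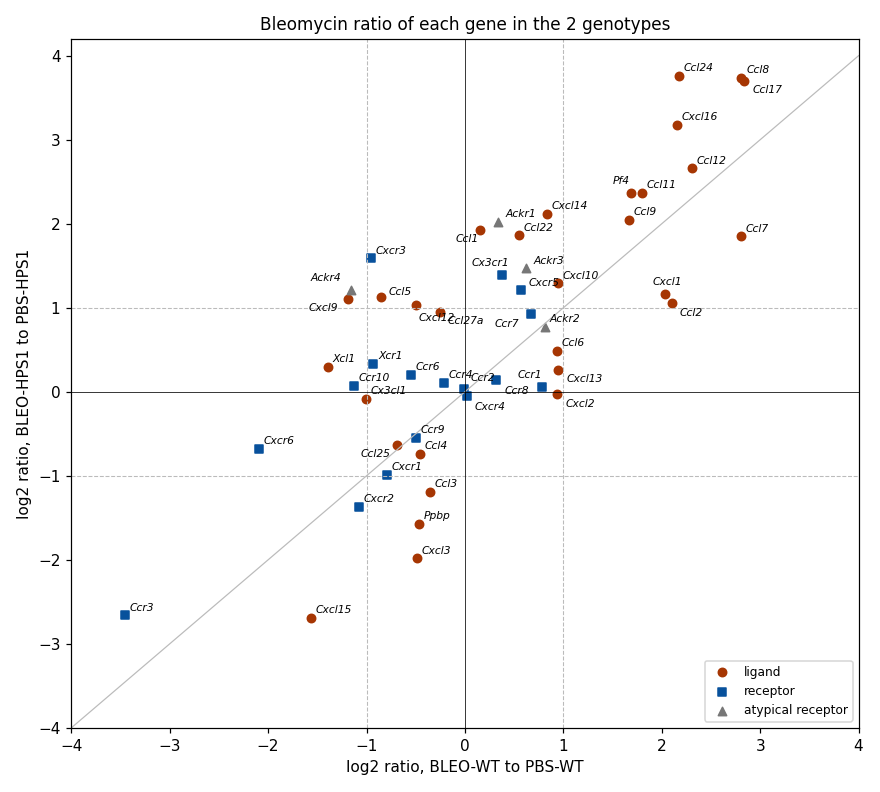
Log2 ratio of BLEO-HPS1 to PBS-HPS1 against log2 ratio of BLEO-WT to PBS-WT for the members described, uncorrected, 1 point per gene, marked by kind, with dashed lines at a 2-fold difference and the diagonal of equal ratios. The CC ligands Ccl8, Ccl17 and Ccl24 stand at the upper right, Ccr3 and Cxcl15 at the lower left, and Cxcr3, Ackr4 and Cxcl9 at the upper left.

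The monocyte-attracting CC ligands were all higher with bleomycin in both genotypes. Ccl2, the main ligand of CCR2, stood at 17.9, 15.7, 77.1 and 32.8 CPM. This was 4.30-fold higher in BLEO-WT than in PBS-WT (log2 2.10, 95% interval 2.02 to 2.19) and 2.09-fold higher in BLEO-HPS1 than in PBS-HPS1 (log2 1.06, 0.97 to 1.16), and the Hps1-/- ratio was 0.42 with total counts alone. Ccl7, which acts on CCR2 and other CC receptors, was at 2.80, 2.46, 19.6 and 8.94 CPM, with bleomycin log2 ratios of 2.80 in WT and 1.85 in Hps1-/-. Ccl8, whose mouse form acts on CCR8, was at 2.04, 0.858, 14.4 and 11.8 CPM, with log2 ratios of 2.81 and 3.74. Both bleomycin libraries stood above both PBS libraries for each of these genes and for Ccl12, a mouse CCR2 ligand at 0.936, 0.778, 4.73 and 5.03 CPM. Between the genotypes after bleomycin, Ccl2 (log2 -1.23, -1.31 to -1.16) and Ccl7 (log2 -1.13, -1.28 to -0.99) were lower in BLEO-HPS1, while Ccl8 (-0.29) and Ccl12 (0.09) were under 2-fold apart. Macrophage marker sums were higher in the same libraries, at 23495 against 15960 CPM in WT and 22195 against 11569 CPM in Hps1-/-, with 5 and 8 of the 13 genes found at least 2-fold higher and 1 and 3 lower, and their part in the ligand levels was not tested.

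The ratios of their receptors depended on the correction. Ccr2, which brings monocytes out of the marrow and into tissue, stood at 332, 144, 330 and 148 CPM. Bleomycin and PBS libraries of a genotype differed by log2 -0.007 in WT and 0.033 in Hps1-/-, which became 0.71 and 1.91 when corrected. In CPM both Hps1-/- libraries stood below both WT libraries. Ccr1, the receptor of Ccl3, Ccl5, Ccl6 and Ccl9, was at 87.6, 73.1, 150 and 76.2 CPM. Its bleomycin log2 ratios of 0.78 in WT and 0.06 in Hps1-/- were under 2-fold, and the corrected ratio was 1.41 in each genotype. Between the bleomycin libraries its log2 ratio was -0.98, which became -1.11 with total counts alone and -0.38 when corrected.

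The eotaxins, which attract eosinophils through CCR3, were higher with bleomycin while Ccr3 itself was lower. Ccl24 stood at 1.53, 0.525, 6.96 and 7.46 CPM, with bleomycin log2 ratios of 2.17 (1.90 to 2.49) in WT and 3.76 (3.41 to 4.27) in Hps1-/-, the latter 3.05 when corrected. Ccl11 was at 0.205, 0.828, 0.778 and 4.40 CPM, lowest in PBS-WT with 16 reads and highest in BLEO-HPS1 with 278 reads. Ccr3 stood at 6.79, 3.43, 0.599 and 0.522 CPM, so that both bleomycin libraries lay below both PBS libraries. It was 10.9-fold lower with bleomycin in WT (log2 -3.45, -3.96 to -3.07) and 6.32-fold lower in Hps1-/- (log2 -2.66, -3.28 to -2.20), on 47 and 33 reads in the bleomycin libraries. The corrected ratios were smaller in size, at -2.80 in WT and -1.21 in Hps1-/-. The 5 other eosinophil markers summed to 937, 684, 449 and 282 CPM, mostly Ear2 at 720, 517, 418 and 265 CPM. With Ccr3 among them, 3 eosinophil markers were at least 2-fold lower with bleomycin in WT and 1 higher (Ear6). In Hps1-/- 2 were lower and none higher. The 8 of mast cells and basophils summed to 110, 94.7, 56.8 and 41 CPM, of which Gata2 gave 65.6, 68.5, 43 and 33.2 CPM. Of the 8, 4 were lower in WT and 7 in Hps1-/-, and none higher. The part of either list in Ccr3 was not tested.

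The CCR4 ligands, made by dendritic cells and macrophages under type 2 cytokines, were both at least 2-fold higher with bleomycin in Hps1-/-, and in WT Ccl17 alone was. Ccl17 stood at 27.0, 21.7, 193 and 283 CPM, 7.16-fold higher with bleomycin in WT (log2 2.84, 2.77 to 2.91) and 13-fold higher in Hps1-/- (log2 3.70, 3.64 to 3.77). Corrected for GC content and length these ratios were 2.67 and 2.56. Ccl22 stood at 49.1, 40.6, 71.8 and 148 CPM, under 2-fold with bleomycin in WT (log2 0.55) and 3.64-fold higher in Hps1-/- (log2 1.86, 1.81 to 1.92). Ccl1, a CCR8 ligand, was low, at 0.41, 0.535, 0.459 and 2.11 CPM, and stood apart in BLEO-HPS1. Their receptors were within 2-fold in every comparison, with Ccr4 at 16.1, 11.6, 13.9 and 12.5 CPM and Ccr8 at 11.2, 12.5, 14.0 and 13.8 CPM. Dendritic cell markers without Ccr7 and Xcr1 summed to 247, 186, 196 and 326 CPM. Of the dendritic genes Fscn1, which marks mature cells, was at 45.4, 37.9, 62.1 and 162 CPM. Ccr7, their homing receptor and a member, was at 170, 215, 270 and 411 CPM. Others went the other way, such as Cd209a at 96.2, 69.4, 35.9 and 43.5 CPM. Of the 10 dendritic markers, Ccr7 and Xcr1 among them, 3 were at least 2-fold lower with bleomycin in WT and none higher. In Hps1-/- 3 were higher and 1 lower, and the part of dendritic cells in Ccl22 was not tested.

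The ligands grouped around CCR1 did not move together. Ccl6 was the most abundant but stayed under 2-fold in every comparison, at 1330, 1457, 2558 and 2048 CPM, although its bleomycin ratio in WT was log2 0.94 and 1.09 when corrected. Ccl9, its neighbour in the genome, stood at 181, 143, 578 and 593 CPM, higher with bleomycin in WT (log2 1.67, 1.65 to 1.70) and in Hps1-/- (log2 2.05, 2.02 to 2.08; corrected 3.06). Ccl3 and Ccl4, made by activated macrophages and lymphocytes, were lowest in BLEO-HPS1. Ccl3 stood at 93, 90.5, 72.2 and 39.5 CPM, 2.29-fold lower with bleomycin in Hps1-/- (log2 -1.19, -1.26 to -1.13), and Ccl4 at 41.7, 38.5, 30.2 and 23.0 CPM. The bleomycin log2 ratio of Ccl4 in Hps1-/- was -0.74, and -1.43 when corrected. Ccl5, a product of T and NK cells, went the other way in Hps1-/-, at 82.9, 76.1, 45.9 and 167 CPM, but its bleomycin ratio there (log2 1.13, 1.09 to 1.18) became -0.028 when corrected, and in WT log2 -0.85 became -1.06.

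The CXC ligands of neutrophils split. Cxcl1 was higher with bleomycin, at 29.6, 33.3, 121 and 74.2 CPM, with log2 ratios of 2.03 (1.97 to 2.10) in WT and 1.16 (1.09 to 1.22) in Hps1-/-, the latter 0.51 with total counts alone. Cxcl2 was at 706, 650, 1353 and 635 CPM, highest in BLEO-WT and under 2-fold in each bleomycin comparison, with log2 0.94 in WT that became 1.11 when corrected. Cxcl3 was at 6.25, 6.19, 4.43 and 1.55 CPM, lowest in BLEO-HPS1. These 3 genes carry the shared NF-kB letters printed above. Their bleomycin ratios in Hps1-/- ran from 1.16 in Cxcl1 to -0.032 in Cxcl2 and -1.98 in Cxcl3, or from 1.54 to 0.34 and -1.01 when corrected. Any link between the letters and the ratios was not tested. Cxcl15, a chemokine of bronchial and alveolar epithelium, was at 52.6, 39.1, 17.8 and 6.03 CPM, 2.96-fold lower with bleomycin in WT (log2 -1.56, -1.65 to -1.48) and 6.46-fold lower in Hps1-/- (log2 -2.69, -2.85 to -2.55; corrected -1.78). The 11 epithelial markers summed to 1332, 981, 786 and 546 CPM in the same order. Much of each sum came from Sftpc, the alveolar surfactant gene, at 816, 538, 343 and 185 CPM. With bleomycin in WT, 2 of the 11 were at least 2-fold lower and none higher. In Hps1-/- 5 were lower and 1 higher, Krt18 at 4.54, 4.36, 6.94 and 11.9 CPM. The part of these markers in Cxcl15 was not tested. Ppbp, the platelet precursor of CXCL7, was at 5.77, 4.13, 4.17 and 1.38 CPM, and the other 5 megakaryocyte markers summed to 18.7, 17.2, 10.6 and 5.92 CPM. Pf4, a platelet chemokine also made by some macrophages, went the other way, at 9.89, 5.99, 32.0 and 30.9 CPM, with bleomycin log2 ratios of 1.69 (1.58 to 1.81) in WT and 2.36 (2.24 to 2.50; corrected 1.53) in Hps1-/-.

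Cxcr2, the neutrophil receptor for ligands such as Cxcl1, Cxcl2 and Cxcl3, was lower in every comparison made. It stood at 96.4, 35.3, 45.7 and 13.7 CPM, 2.11-fold lower with bleomycin in WT (log2 -1.08, -1.13 to -1.02) and 2.58-fold lower in Hps1-/- (log2 -1.37, -1.48 to -1.26), values that became -0.93 and -0.86 after correction for GC content and length. Its relative Cxcr1 followed at 5.93, 3.33, 3.41 and 1.66 CPM, with a bleomycin log2 ratio of -0.99 in Hps1-/- that became -1.28 when corrected. Neutrophil markers summed to 1636, 452, 889 and 470 CPM. With bleomycin in WT, 3 of the 10 were at least 2-fold lower and none higher, while in Hps1-/-, where Cxcr2 was also lower, 3 were higher and none lower. Their part in Cxcr2 was not tested.

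The interferon-induced CXCR3 ligands and their receptor differed in pattern. Cxcl10 stood at 23.1, 14.4, 44.7 and 35.3 CPM, with bleomycin log2 ratios of 0.95 in WT and 1.29 (1.19 to 1.39; 0.65 with total counts alone) in Hps1-/-. Cxcl9 stood at 9.71, 2.48, 4.23 and 5.38 CPM, highest in PBS-WT. It was 2.29-fold lower with bleomycin in WT (log2 -1.19, -1.39 to -1.01; -0.89 after correction for GC content and length) and 2.15-fold higher in Hps1-/- (log2 1.11, 0.87 to 1.36; corrected 1.92; 0.47 with total counts alone). Cxcr3, a receptor of effector T and NK cells, was at 35.6, 23.4, 18.4 and 70.5 CPM, with log2 ratios of -0.95 (corrected -1.20) in WT and 1.59 (1.52 to 1.66) in Hps1-/-, the latter 0.66 after correction for GC content and length and 0.95 with total counts alone. The 10 NK and ILC1 markers summed to 274, 355, 141 and 457 CPM and the 10 T cell markers to 932, 740, 800 and 1386 CPM. With bleomycin in WT, 6 NK and ILC1 markers were at least 2-fold lower and none higher, and no T cell marker differed. In Hps1-/- 1 NK and ILC1 marker was higher and 2 lower, and 5 T cell markers were higher and 1 lower. The part of these markers in Cxcr3 and Ccl5 was not tested.

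Cxcl16 and its receptor Cxcr6 went in opposite directions with bleomycin in WT. Cxcl16, a membrane-bound chemokine and scavenger protein of macrophages and dendritic cells, stood at 51.5, 32.1, 229 and 291 CPM, 4.44-fold higher with bleomycin in WT (log2 2.15, 2.10 to 2.20) and 9.05-fold higher in Hps1-/- (log2 3.18, 3.12 to 3.23). Cxcr6, found on tissue T cells, NK cells and innate lymphoid cells, stood at 71.9, 32.4, 16.9 and 20.2 CPM. It was 4.25-fold lower with bleomycin in WT (log2 -2.09, -2.18 to -2.0) and under 2-fold lower in Hps1-/- (log2 -0.68; corrected -0.05; -1.32 with total counts alone), where the PBS library already stood lower. Adam10, the protease that sheds CXCL16 and CX3CL1, was at 183, 156, 238 and 90.4 CPM.

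The stromal and homeostatic CXC ligands were highest in BLEO-HPS1 or BLEO-WT. Cxcl12, made by fibroblasts and endothelium, stood at 27.3, 24.4, 19.3 and 50.0 CPM, and Cxcl14, an epithelial and stromal chemokine, at 12.8, 16.1, 22.8 and 69.8 CPM. With bleomycin in Hps1-/- their log2 ratios were 1.03 (0.96 to 1.11) and 2.12 (2.04 to 2.20), and in WT -0.50 and 0.83. The Hps1-/- ratio of Cxcl14 became 1.13 when corrected, and that of Cxcl12 was 0.39 with total counts alone. Fibroblast markers summed to 282, 438, 670 and 3050 CPM, and Col1a1 was at 38.2, 75.1, 170 and 982 CPM, and their part in Cxcl12, Cxcl14 and Ccl11 was not tested. The CXCL12 receptor Cxcr4 was level, at 451, 418, 456 and 403 CPM. Cxcl13, the B cell attractant of lymphoid follicles, was at 5.55, 3.29, 10.8 and 3.94 CPM, highest in BLEO-WT, with a bleomycin log2 ratio of 0.95 in WT that became 1.41 when corrected. Its receptor Cxcr5 was at 10, 14.9, 15 and 34.4 CPM, highest in BLEO-HPS1, with a bleomycin log2 ratio of 1.21 in Hps1-/- that became 0.70 when corrected. B and plasma cell markers summed to 205, 180, 144 and 397 CPM. Cd79a was at 23.7, 30.2, 35.5 and 124 CPM, while Pax5 went the other way at 18.1, 24.6, 13.9 and 14.2 CPM. Of the 10 markers, 1 was at least 2-fold lower with bleomycin in WT and none higher. In Hps1-/- 4 were higher and none lower, and the part of these markers in Cxcr5 was not tested.

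Of the XC and CX3C pairs, Xcl1, made by NK and CD8+ T cells, was at 4.91, 5.47, 1.86 and 6.74 CPM, 2.62-fold lower with bleomycin in WT (log2 -1.39, -1.68 to -1.12) and under 2-fold in Hps1-/-. Its receptor Xcr1, a marker of cross-presenting dendritic cells, was at 3.54, 2.09, 1.85 and 2.64 CPM, with a bleomycin log2 ratio of 0.33 in Hps1-/- that became 1.63 when corrected. Cx3cl1, a membrane-bound chemokine of endothelium and epithelium, was at 32.3, 20.4, 16.0 and 19.3 CPM, highest in PBS-WT, with a bleomycin log2 ratio of -1.01 (-1.11 to -0.91) in WT. Cx3cr1, its receptor on monocytes and macrophages, was at 116, 52.3, 152 and 137 CPM, lowest in PBS-HPS1, and 2.63-fold higher with bleomycin in Hps1-/- (log2 1.39, 1.34 to 1.44; 0.75 with total counts alone).

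**Figure D4:**
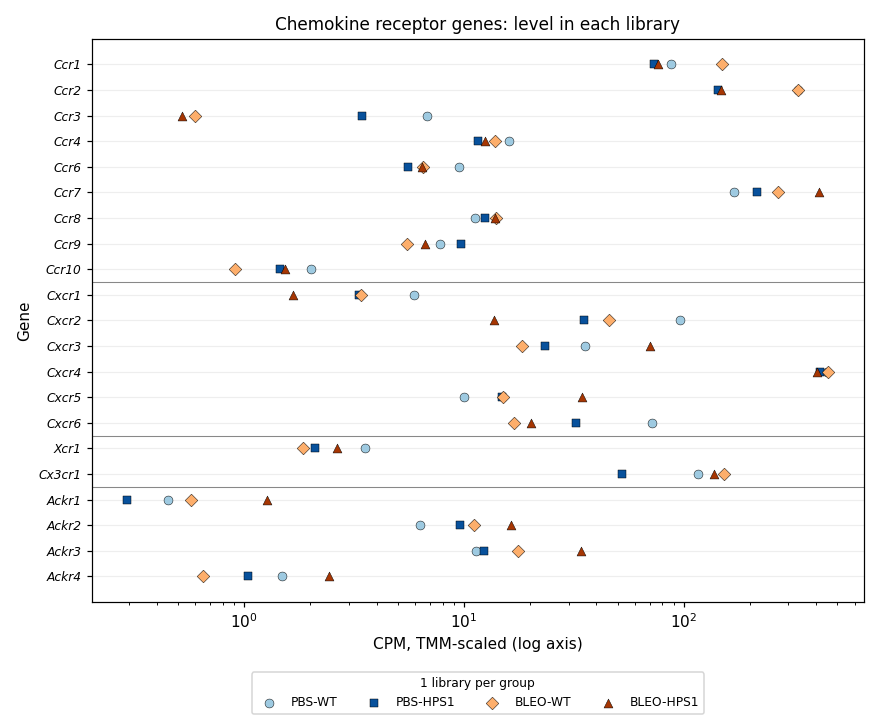
Level of the signalling and atypical receptor genes described, in CPM (log axis) in the 4 libraries, 1 point per library, grouped by family between the grey lines. Cxcr4 is nearly level, between 403 and 456 CPM, Ccr2 pairs by genotype at 330 to 332 against 144 to 148 CPM, and Ccr3 pairs by treatment.

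The remaining receptors and ligands were low. Ccr6 lay between 5.57 and 9.51 CPM, Ccr9, which guides cells to gut and thymus, between 5.51 and 9.71 CPM, and its ligand Ccl25 between 1.59 and 3.32 CPM. Ccr10, a receptor for skin homing, lay between 0.906 and 2.01 CPM and was 2.19-fold lower with bleomycin in WT (log2 -1.13, -1.58 to -0.74). In Hps1-/- its ratio of 0.07 became -1.02 when corrected. Ccl27a, its ligand, lay between 1.19 and 2.36 CPM. In all, 13 of the 52 members stayed under 2-fold in every comparison without correction, a count given without its share over all genes.

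All 4 atypical receptors were highest in BLEO-HPS1. For Ackr1, which reached 1 CPM there alone, the filter fixed this. Ackr3, which scavenges CXCL12, stood at 11.4, 12.3, 17.6 and 34.1 CPM, 2.77-fold higher with bleomycin in Hps1-/- (log2 1.47, 1.37 to 1.58; 0.83 with total counts alone). Ackr2, which degrades inflammatory CC chemokines, was at 6.31, 9.55, 11.1 and 16.3 CPM and under 2-fold in every comparison. Ackr4, which takes up CCL19, CCL21 and CCL25, was at 1.49, 1.04, 0.65 and 2.44 CPM, 2.24-fold lower with bleomycin in WT (log2 -1.16, -1.70 to -0.71) and 2.31-fold higher in Hps1-/- (log2 1.21, 0.86 to 1.60; 0.58 with total counts alone). Ackr1, the Duffy antigen of venules and red cells, was at 0.449, 0.293, 0.574 and 1.27 CPM, on 29 to 80 reads. Between the bleomycin libraries its log2 ratio of 1.11 became 0.66 when corrected, while that of Ackr3 went from 0.96 to 1.01. Endothelial markers without Ackr1 summed to 904, 899, 1067 and 1396 CPM. Of the 10 with Ackr1, 2 were at least 2-fold higher with bleomycin in WT and none lower. In Hps1-/- 3 were higher and 1 lower, Prox1 at 7.95, 15, 4.76 and 2.39 CPM. The part of these markers in the atypical receptors was not tested.

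The comparison of BLEO-HPS1 with BLEO-WT asks how the genotypes differ after injury. In BLEO-HPS1, 11 of the 52 members (21.2%) were at least 2-fold higher, against 6.72% of all genes, and 11 (21.2%) at least 2-fold lower, against 10.3% of all genes. The higher ones were 7 ligands, the receptors Cxcr3 and Cxcr5, and the atypical Ackr1 and Ackr4. Of these, Ccl1, Ccl11 and Ackr1 reached 1 CPM in BLEO-HPS1 alone, so the filter fixed their direction here. The lower ones were 7 ligands and receptors that included Cxcr1, Cxcr2 and Ccr2. Correction for GC content and length left 15 of the 22 at least 2-fold, and Ccl22, Cxcl2, Cxcl3, Cxcr5, Ccr2 and Ackr1 were among those that fell below it, while Ackr3 and Xcr1 (log2 0.51, corrected 1.22) came past it.

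The genes higher in BLEO-HPS1 included ligands and receptors of lymphocytes and ligands of stroma. Ccl5 was 3.64-fold higher (log2 1.86, 1.81 to 1.92; corrected 1.13), Cxcr3 3.83-fold (log2 1.94, 1.85 to 2.02) and Xcl1 3.59-fold (log2 1.84, 1.58 to 2.14), while 7 of the 10 NK and ILC1 markers were also at least 2-fold higher. Cxcl14 was 3.06-fold higher (log2 1.61, 1.53 to 1.69; corrected 1.04), Cxcl12 2.58-fold (log2 1.37, 1.28 to 1.46) and Ccl11 5.51-fold (log2 2.46, 2.10 to 2.92), while 10 of the 12 fibroblast markers were also at least 2-fold higher. Cxcr5 was 2.30-fold higher (log2 1.20, 1.10 to 1.30) and Ccl22 2.05-fold (log2 1.04, 0.99 to 1.09), with corrected values of 0.91 and 0.80. The low Ccl1 was 4.40-fold higher on 133 against 36 reads.

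The genes lower in BLEO-HPS1 included ligands and receptors of neutrophils and monocytes. Of the 5 neutrophil-attracting CXC ligands, 4 were at least 2-fold lower and none higher. Cxcl2 was 2.13-fold lower (log2 -1.09, -1.11 to -1.07; corrected -0.83), Cxcl3 2.82-fold (log2 -1.50, -1.85 to -1.19; corrected -0.94), Cxcl15 2.94-fold (log2 -1.55, -1.73 to -1.39; corrected -1.09) and Ppbp 2.99-fold (log2 -1.58, -1.96 to -1.25; corrected -1.34). Cxcl1, the fifth of them, had a log2 ratio of -0.71. Cxcr2, the receptor for ligands such as Cxcl1, Cxcl2 and Cxcl3, was 3.34-fold lower (log2 -1.74, -1.85 to -1.63). Ccr2 was 2.24-fold lower (log2 -1.16, -1.20 to -1.13) with a corrected value of -0.25. The B cell attractant Cxcl13 was 2.73-fold lower (log2 -1.45, -1.66 to -1.25). Of the 10 neutrophil markers 4 were at least 2-fold lower and 1 higher, and of the 13 macrophage and monocyte markers found 2 were lower and 1 higher.

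**Figure D5:**
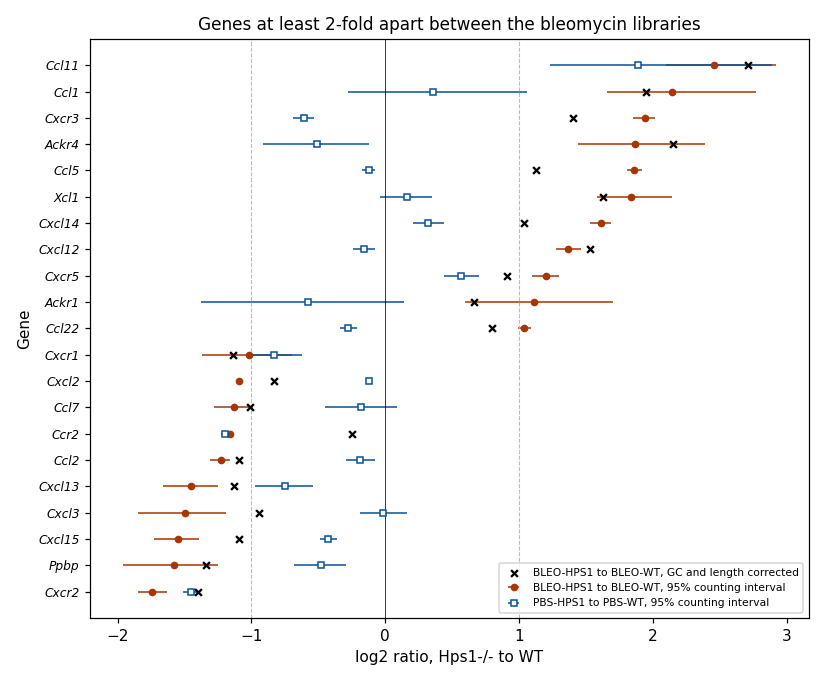
Log2 ratio of Hps1-/- to WT for members at least 2-fold apart between the bleomycin libraries, with filled circles for the bleomycin libraries, open squares for the PBS libraries, bars for 95% counting intervals and crosses for the bleomycin ratio corrected for GC content and length. The cross of Ccr2 at -0.25 lies far from its circle, and for Ccl11, Cxcr2 and Ccr2 the squares also lie past 2-fold on the side of the circles.

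Between the PBS libraries the genotypes differed less. In PBS-HPS1, 1 of the 52 members (1.92%) was at least 2-fold higher than in PBS-WT, against 2.16% of all genes, and 7 (13.5%) at least 2-fold lower, against 3.11% of all genes. With total counts alone 3 were lower and 1 higher. The higher one was Ccl11 (log2 1.89, 1.23 to 2.89, on 82 against 16 reads), and the lower ones were Cxcl9, Ccl8, Ccl24, Cxcr2, Cxcr6, Ccr2 and Cx3cr1. Cxcl9 was 3.88-fold lower (log2 -1.96, -2.18 to -1.76), Cxcr2 2.73-fold (log2 -1.45, -1.51 to -1.39) and Ccr2 2.30-fold (log2 -1.20, -1.23 to -1.17). Cx3cr1 and Cxcr6 were each 2.22-fold lower, with log2 ratios of -1.15 that became -0.91 and -0.90 with total counts alone, and Ccr2 became -0.96. All 10 neutrophil markers were at least 2-fold lower in PBS-HPS1 as well, and their part in Cxcr2 was not tested. Ccl11, Cxcr2 and Ccr2 were at least 2-fold apart in the same direction with PBS and with bleomycin.

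The bleomycin log2 ratios of the genotypes were subtracted gene by gene. They lay at least 1 apart in 21 of the 52 members, 17 with the larger ratio in Hps1-/- and 4 in WT, while of the 14840 genes 2423 had the larger ratio in Hps1-/- and 1655 in WT. The median difference was 0.48 over the members and 0.15 over all genes. The split depended on the scaling, since with total counts alone 10 members had the larger ratio in Hps1-/- and 11 in WT, and when corrected 14 and 2. No count over all genes is given for those settings. Of the 21 members, 14 remained at least 1 apart with total counts alone and 13 when corrected. The difference was 2.54 (95% interval 2.43 to 2.66) for Cxcr3, 1.99 (1.91 to 2.06) for Ccl5, 1.53 (1.41 to 1.65) for Cxcl12, 1.41 (1.28 to 1.53) for Cxcr6, 1.31 (1.23 to 1.39) for Ccl22 and 1.29 (1.15 to 1.43) for Cxcl14. When corrected, Cxcr3 was at 1.86, Ccl5 at 1.04, Cxcl12 at 1.80 and Cxcr6 at 1.73, while Ccl22 and Cxcl14 fell below 1, Cxcl14 to 0.57. On the other side it was -1.48 (-1.85 to -1.12) for Cxcl3, -1.13 (-1.30 to -0.95) for Cxcl15, -1.10 (-1.49 to -0.71) for Ppbp and -1.04 (-1.17 to -0.92) for Ccl2. When corrected, Cxcl3 was at -0.85, Cxcl15 at -0.65 and Ppbp at -0.95, and Ccl2 stayed at -1.04. For Ccl17, the difference was 0.86 (0.77 to 0.96) and turned to -0.10 when corrected. Without replicates no interaction could be tested, and these values describe 4 libraries.

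Chemokine genes that are neighbours in the genome were read together, with positions from GENCODE M21 on GRCm38. Of all genes, 5.28% were at least 2-fold higher and 8.22% lower with bleomycin in WT, and 26.2% and 19.6% in Hps1-/-. Between the bleomycin libraries 6.72% were higher and 10.3% lower in Hps1-/-. Each cluster holds few genes, so its counts only describe them. In the cluster of Ccl2, Ccl7, Ccl11, Ccl12, Ccl8 and Ccl1 at chr11:82035571-82305690, 270 kb, 5 of the 6 genes were at least 2-fold higher with bleomycin in WT and 6 in Hps1-/-. Between the bleomycin libraries 2 of them were lower in Hps1-/- (Ccl2 and Ccl7) and 2 higher (Ccl11 and Ccl1), so neighbours moved apart. In the cluster of Ccl5, Ccl9, Ccl6, Ccl3 and Ccl4 at chr11:83525778-83664683, 139 kb, 1 of the 5 was at least 2-fold higher with bleomycin in WT, and 2 were higher and 1 lower in Hps1-/-, where Ccl5, among the higher, fell to a corrected log2 ratio of -0.028. In the cluster at chr5:90759360-90905938, 147 kb, which holds Cxcl5, Ppbp, Pf4, Cxcl3, Cxcl15, Cxcl1 and Cxcl2, 4 of the 6 genes that reached 1 CPM were at least 2-fold lower in BLEO-HPS1 than in BLEO-WT, and 2 of these, Ppbp and Cxcl15, when corrected. Ccl22, Cx3cl1 and Ccl17 lie within 66.4 kb at chr8:94745590-94812036, and with bleomycin in WT they gave 1 higher (Ccl17) and 1 lower (Cx3cl1).

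Other genes of chemotaxis were counted from lists fixed for the purpose. Of 17 genes of other chemoattractant receptors and ligands at 1 CPM or more, 5 were at least 2-fold higher and 2 lower with bleomycin in WT, and 8 higher and 2 lower in Hps1-/-. Over all genes 5.28% were higher and 8.22% lower in WT, and 26.2% and 19.6% in Hps1-/-. C3ar1, the receptor of complement C3a, was at 18.7, 10.2, 154 and 80.8 CPM. Cmklr1, the chemerin receptor, was at 28.1, 25, 140 and 137 CPM, and Rarres2, which encodes chemerin, at 5.95, 6.33, 7.14 and 33.6 CPM. Ccrl2, a chemerin-binding receptor without signalling, was at 314, 233, 889 and 519 CPM. The formyl peptide receptors were lower with bleomycin, Fpr1 at 70.6, 68.9, 21.8 and 17.3 CPM and Fpr2 at 70.1, 52.6, 21.1 and 18.8 CPM. Between the bleomycin libraries 2 of the 17 were higher in Hps1-/- and none lower, and between the PBS libraries none was higher and Ltb4r1, a leukotriene B4 receptor at 38.2, 18.5, 67 and 105 CPM, was lower (log2 -1.05, corrected -0.89).

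Of 21 genes for signalling and desensitisation behind chemokine receptors, none was 2-fold apart with bleomycin in WT or between the PBS libraries, although Rgs1 had a corrected log2 ratio of 1.26 in WT. In Hps1-/- with bleomycin 4 were higher (Gnai2, Rac2, Grk6 and Arrb2, with log2 ratios of 1.37, 1.47, 1.26 and 1.41) and 4 lower (Gnai3, Rgs1, Rgs18 and Grk3, with log2 ratios of -1.50, -1.03, -1.03 and -1.25), where 26.2% of all genes were higher and 19.6% lower, so that neither share was above that of all genes. None of these 8 kept a 2-fold difference in its direction when corrected. The corrected ratios were 0.42, 0.97, 0.48 and 0.42 for the higher ones and -0.38, 1.23, 0.68 and -0.72 for the lower ones. With total counts alone none of the 21 was higher and 7 were lower. Between the bleomycin libraries Gnai3, an inhibitory G protein subunit, and Rgs1, which dampens G protein signals, were lower in Hps1-/-, with log2 ratios of -1.14 and -1.29 that became -0.56 and -0.33 when corrected. Of 9 genes that process or present chemokines, 3 were higher with bleomycin in each genotype and none lower. Over all genes 5.28% were higher in WT and 26.2% in Hps1-/-, so the Hps1-/- count lies near the share of all genes. With total counts alone 1 of the 9 was higher and 3 lower in Hps1-/-. Mmp12, a macrophage metalloprotease that cleaves chemokines, was at 37, 17.3, 227 and 127 CPM, and Sdc4, a syndecan whose glycans bind them, at 35.1, 33.7, 131 and 103 CPM. Adam10 was the only one of the 9 at least 2-fold apart between the bleomycin libraries, lower in Hps1-/- with a log2 ratio of -1.40 (corrected -0.67), and Mmp12 the only one between the PBS libraries, lower with a log2 ratio of -1.09.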

How the data were processed

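RNA-Seq of sorted and IL-2-cultured lung cells labelled ILC2 was available for 4 groups with 1 library each. The authors deposited raw counts per Ensembl gene. A SMARTER mRNA kit was used for the libraries, and the aligner, counting tool, build and annotation are not given in the sources used here. GENCODE M21 held 49056 of the identifiers, among them all 70 members.

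Counts were scaled with TMM factors (1.08, 1.27, 0.895 and 0.816) in edgeR 4.0.16 (R 4.3.3), and log2 CPM used a prior count of 2. The 14840 genes with at least 1 CPM in at least 1 library were compared in 4 pairs of libraries, and log2 ratios of 1 or more, in either direction, counted as a difference. Intervals at 95% were exact Clopper-Pearson intervals for ratios, and a normal approximation from the read counts for differences between ratios. Both cover counting error only, and are too narrow where PCR copies of a molecule are counted again. The limit of detection used, 3 reads, is worth 0.0303 to 0.0475 CPM. The total counts of 72513619 to 87638154 per library set this precision. No p-value is given because no group has a replicate. The code was tested on simulated data. CPM per kb divides by the merged exon length. Motifs were searched in RefSeq promoters.

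The members, gene lists, roles and rules were chosen with earlier results of these data known. A member was given a ratio with its interval where it was at least 2-fold different and reached 10 CPM in the pair compared, or as the ligand or receptor of such a member, with lower genes named as well to account for every member, and pathway genes by the same rule. Alternatives were DESeq2 1.42.0 size factors, total counts alone, no filter, a minimum of 10 counts per library, a prior count of 0.5 or 10, a threshold of 2 on the log2 scale, and a loess correction (span 0.3) for GC content and length. Some genes, a member among them, and a motif are not reported here. Other data of the study were not analysed here.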

Additional observations from a re-analysis of the deposited data

Results flagged for a closer look

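In 2 members the bleomycin ratio was at least 2-fold in both genotypes but in opposite directions, a count given without its share over all genes. For Cxcl9, an interferon-induced CXCR3 ligand, bleomycin against PBS gave a log2 ratio of -1.19 in WT and 1.11 in Hps1-/-, with the largest level in PBS-WT (9.71 CPM). For Ackr4, an atypical receptor for CCL19, CCL21 and CCL25, it was -1.16 in WT and 1.21 in Hps1-/-, on 51 to 154 reads per library. With total counts alone the Hps1-/- ratios were 0.47 for Cxcl9 and 0.58 for Ackr4, and correction for GC content and length gave -0.89 for Cxcl9 in WT. With 1 library per group the difference between the genotypes was not tested.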

How the results depend on the processing

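No paired analysis was possible because each group has 1 library, and for the same reason no library could be left out. DESeq2 size factors, prior counts of 0.5 and 10 and the other filters kept each count of members at least 2-fold different within 1.5 times its value. No share over all genes is given for the counts under any alternative, so they only describe the members. With a log2 threshold of 2, 2 members were higher and 0 lower in BLEO-HPS1 against BLEO-WT (2 in all), 0 higher and 0 lower in PBS-HPS1 against PBS-WT (0 in all), 2 lower (10 in all) in BLEO-WT against PBS-WT, and 10 higher and 2 lower (12 in all) in BLEO-HPS1 against PBS-HPS1. With total counts alone, 3 were lower (4 in all) in PBS-HPS1 against PBS-WT, where Ccl8, Ccr2, Cx3cr1 and Cxcr6 fell under 2-fold. In BLEO-HPS1 against PBS-HPS1, total counts alone gave 13 higher and 11 lower, and 19 of the 31 members called remained. Total counts alone also changed the sign of the members' median log2 ratio, from 0.23 to -0.022 in BLEO-WT against PBS-WT and from 0.06 to -0.07 in BLEO-HPS1 against BLEO-WT. Corrected for GC content and length, 7 were lower in BLEO-HPS1 against BLEO-WT, and the log2 ratio of Ccl5 in BLEO-HPS1 against PBS-HPS1 turned to -0.028. With that correction 27 of 31 members remained at least 2-fold in BLEO-HPS1 against PBS-HPS1 and 6 others came past it, 19 of 21 remained and 6 came past it in BLEO-WT against PBS-WT, 8 of 8 remained and 1 (Ccr3) came past it in PBS-HPS1 against PBS-WT, and 15 of 22 remained and 2 came past it in BLEO-HPS1 against BLEO-WT. The differences between the bleomycin ratios of the genotypes moved beyond their counting interval in 16 of 21 members with the correction and in 13 of 21 with total counts alone. The cause of these shifts was not tested. Depth limits the genes with few reads, such as Ccl11, Ccr3 and Ackr4, whose counting intervals are wide.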
